A study of Homo sapiens with 131 samples.

Results

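The mRNAs of the nuclear-encoded subunits of respiratory complexes II to V and of cytochrome c were followed through all measurements of a study of processing bodies. They were chosen by gene symbol alone: the SDH subunit genes, the UQCR genes, CYC1, CYCS, the COX4 to COX8 genes of complex IV and the ATP5 genes. ATP5IF1 and COX7A2L, which are not structural subunits, fitted by symbol and were counted with complexes V and IV. Of 59412 gene names deposited, 155 fitted, 51 genes and 104 pseudogenes. The editing tables held 45 of these genes among 12997 in all, 4 of complex II, 10 of complex III, the cytochrome c gene, 12 of complex IV and 18 of complex V. The genes ATP5MGL, COX4I2, COX6A2, COX7A1, COX7B2 and COX8C appeared in the level tables but not in the editing tables.

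Complex II passes electrons from succinate to ubiquinone, complex III passes them on to cytochrome c, and complex IV transfers them to oxygen. The proton gradient built on the way drives complex V, the ATP synthase, in which a turning ring of c subunits in the inner membrane drives a central stalk inside a fixed catalytic head. The 4 subunits of complex II are all made in the cytosol, whereas complexes III, IV and V join imported subunits to partners that are translated inside the mitochondrion. Processing bodies (P-bodies) are cytoplasmic granules in which mRNAs are held with proteins of translational repression and decapping, among them the RNA helicase DDX6, the scaffold protein LSM14A, the eIF4E-binding protein 4E-T, PATL1, EDC3, EDC4 and the decapping enzyme DCP2.

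In HCT116, a colorectal carcinoma line, such proteins were fused to a base editor and the fusion was induced. ADAR2dd is the deaminase domain of ADAR2 and edits A to I, and APOBEC1 edits C to U. ADAR2dd fusions, with 2 libraries each, were LSM14A-ADAR2dd, ADAR2dd-LSM14A, 4E-T-ADAR2dd, ADAR2dd-4E-T, DDX6-ADAR2dd, ADAR2dd-DDX6, PATL1-ADAR2dd, ADAR2dd-PATL1, EDC3-ADAR2dd and ADAR2dd-EDC3, against an ADAR2dd control with 2 libraries. APOBEC1 fusions were APOBEC1-DDX6 with 3 libraries and DDX6-APOBEC1, LSM14A-APOBEC1, 4E-T-APOBEC1, APOBEC1-4E-T, PATL1-APOBEC1, APOBEC1-PATL1, EDC3-APOBEC1, EDC4-APOBEC1 and DCP2-APOBEC1 with 2 each, against an APOBEC1 control with 3. A further 7 APOBEC1 fusions had 1 library each: APOBEC1-CNOT10, CNOT10-APOBEC1, CNOT1-R-APOBEC1, APOBEC1-EDC4, APOBEC1-LSM14A, APOBEC-DCP2 and APOBEC-EDC3, as the labels name them. Cells with both APOBEC1-DDX6 and LSM14A-ADAR2dd were set against cells with the 2 unfused editors, with 2 libraries per group, in HCT116 and in HEK293T, an embryonic kidney line. A separately sequenced HCT116 set of the same design had 2 libraries per group. In HEK293T, LSM14A-TRIBE-ID was sampled at 0, 15, 30, 60 and 120 min of rapamycin and DDX6-STAMP-ID at 0, 15, 30 and 120 min, with 2 libraries per time. Beside these stood uninduced HCT116 lines (APOBEC1-DDX6 and APOBEC1 control with 3 libraries each, the unfused pair and ADAR2dd control with 2 each), translation efficiency of DDX6-knockout and wild-type cells of both lines, and poly(A) tails of the dual-editor cells from 1 nanopore library per line. How expression was induced, and whether a line was 1 clone, is not given in the sources used here. The 76 replicated editing libraries held 6466474 to 13432692 reads with a median of 10117682. Nothing in the labels states that replicates were separate cultures, and p-values therefore cover only how much these libraries spread, in part perhaps for technical reasons. In bulk RNA of this kind fewer cells of a type and less RNA per cell cannot be told apart. Scores are edited reads in percent of all reads of the gene. Intervals and floors cover counting error only. No source used here gives the filters of the edit caller, so a score of 0 means that no edit was listed.

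The nuclear respiratory factor NRF1 is a known activator of respiratory chain genes, and its palindromic recognition motif was looked for beside members whose RNA moved most. RefSeq promoters (build GRCh38.p14) were found for 36 of the 45 members of the editing tables. In the 250 bases before the start, the motif (GCGCA, any base, then GCGC, or its reverse complement) was present in 9 of 36 members (25.0%), against 5.07% of 35116 promoters. Each member was read from a single promoter, whereas the 35116 were not limited to a single promoter per gene or to expressed genes. The ETS family motif CCGGAAGT or its reverse complement was in 8 (22.2% against 3.42%), and the shorter SP family motif GGGCGG or its reverse complement in 19 (52.8% against 42.6%). Both NRF1 and ETS family motifs stood before 2 members, SDHD and UQCR11 (5.56% against 0.365%). Shown are 80-base stretches around the NRF1 match, in capitals, of ATP5ME (chr4:674406-674485, minus strand), whose read ratio to control in induced APOBEC1-DDX6 cells was the lowest of the 43 members tested, of UQCRFS1 (chr19:29213152-29213231, minus strand), whose ratio was the highest of these 43, and of SDHD (chr11:112086728-112086807, plus strand), which holds both motifs.
ATP5ME: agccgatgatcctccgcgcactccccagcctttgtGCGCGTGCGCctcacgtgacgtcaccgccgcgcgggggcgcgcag
UQCRFS1: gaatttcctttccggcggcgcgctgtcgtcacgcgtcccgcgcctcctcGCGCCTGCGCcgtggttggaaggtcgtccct
SDHD: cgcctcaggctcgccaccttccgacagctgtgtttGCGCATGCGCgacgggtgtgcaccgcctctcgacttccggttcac
The motif thus stood before the single gene at each end of the read ratios tested. It was absent before UQCRH, CYCS and ATP5MC2, the next lowest, and before COX8A, the next highest. A link between motif and ratio was not tested. A match describes these letters and is not evidence of binding.

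LSM14A-ADAR2dd tests which mRNAs come near LSM14A. It edited respiratory mRNAs very unevenly. Small subunits of the ATP synthase stood at the top and complex III at the bottom, while most members carried no edit in the control. ATP5MF, the f subunit of the ATP synthase (chromosome 7, 99458195 to 99466167), scored 27.8% and 22.9% in LSM14A-ADAR2dd cells against 0% and 0% in ADAR2dd control cells. Pooled over libraries this was 130 edited reads of 520 against 0 of 700, at least 58.3-fold higher with the control set at its floor of 3 counts over the group (edgeR's quasi-likelihood test, Benjamini-Hochberg adjusted p = 1.45e-09). The control count of 0 allows a share of up to 0.429%. The pooled ATP5MF score of 25.0% stood above the library-wide share, which was 4.93% ± 0.0436 in the fusion and 0.232% in the control (SD, n = 2 each).

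The 3 genes of the c ring differed. ATP5MC1, ATP5MC2 and ATP5MC3 encode the same mature c subunit behind different import signals. ATP5MC2 (chromosome 12, 53665170 to 53681423) scored 14.4% and 11.0% in LSM14A-ADAR2dd cells against 0% and 0.173% in control cells (143-fold, counting interval 25.3 to 5688, adjusted p = 3.37e-09). ATP5MC3 (chromosome 2, 175176258 to 175181710) scored 0% and 0.684% against 0% and 0.0397%, groups that overlap (21.2-fold, 3.3 to 891, adjusted p = 0.0122). ATP5MC1 had no row in the table of this fusion.

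In complex II the iron-sulfur subunit SDHB stood highest, at 7.87% and 9.30% in LSM14A-ADAR2dd cells against 0.211% and 0% in control cells (78.5-fold, 21.2 to 656, adjusted p = 4.92e-09). The membrane anchor SDHC followed with 5.67% and 4.44% against 0.262% and 0% (36.7-fold, 12.1 to 182, adjusted p = 1.88e-07). The other anchor, SDHD, scored 2.63% and 1.69% against 0.791% and 0.647% (2.9-fold) and did not pass the test (adjusted p = 0.0658). The flavoprotein SDHA, at up to 3.07% in the fusion, had too few edited reads to enter the fit, and its reads may be shared with near-identical copies.

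Complex III lay lowest, with a median score of 0.649% over its members. Its core protein UQCRC1 scored 3.36% and 3.14% in LSM14A-ADAR2dd cells and had no edited read in control cells (at least 55.5-fold higher, adjusted p = 1.6e-09). The Rieske iron-sulfur protein UQCRFS1 reached 0.959% and 0.743% and cytochrome c1, CYC1, 0.478% and 0.690%. The small subunit UQCRQ scored 0% and 0.173% in LSM14A-ADAR2dd cells against 0% in both control libraries, and UQCRHL, a near-identical copy of the hinge protein gene UQCRH, had no edited read in either group. UQCR11 scored 4.67% and 1.79% against 0.543% and 1.37% (3.2-fold, 0.768 to 18.7, adjusted p = 0.159). The electron carrier CYCS (chromosome 7, 25118656 to 25125260) scored 1.27% and 2.17% against 0.104% and 0.445% (6.71-fold, adjusted p = 3.13e-05). That rise was smaller than the library-wide rise of 21.2-fold (log2 ratio -1.67 relative to library-wide editing, adjusted p = 0.0478).

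Complex IV and the ATP synthase head carried moderate scores from many reads. COX6A1 was highest in complex IV, at 8.07% and 10.0% in LSM14A-ADAR2dd cells against 0% in both control libraries (at least 26.5-fold higher, adjusted p = 2.21e-07). COX7C scored 8.68% and 6.38% (at least 88.1-fold higher) and COX4I1 4.79% and 4.88% (at least 99.1-fold higher), again with no edited read in the control. The catalytic beta subunit ATP5F1B scored 6.75% and 6.34% against 0.151% and 0% (84.4-fold, adjusted p = 8.46e-13). The alpha subunit ATP5F1A, which alternates with beta in the head, scored 3.09% and 3.54%, with 324 edited of 9655 reads in the fusion against 0 of 12851 in the control, at least 144-fold higher (adjusted p = 7.38e-12). Its score lay below the library-wide share, and its bound was the highest of those named for this fusion.

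Median scores in LSM14A-ADAR2dd cells were 3.93% for complex II, 0.649% for complex III, 1.80% for cytochrome c, 1.76% for complex IV and 2.57% for complex V. The median over 42 members was 2.1%, against 3.42% over all genes, and 9 of the 42 (21.4%) lay above the library-wide share, against 31.6% of genes. In the control 32 of 42 members had no edited read, against 24.4% of genes. The fit took 30 members, of which the control libraries alone would have brought in 2, so their rise was in part a condition of entry. In the fit 28 of 30 rose, beside 93.1% of all 8392 genes, a share that does not set members apart. Relative to library-wide editing 8 were higher, beside 12.6% of genes, and 2 were lower, SDHD and CYCS, beside 10.8%. The 8 were COX4I1, COX7C, UQCRC1 and the ATP synthase genes ATP5MF, ATP5F1A, ATP5F1B, ATP5F1E and ATP5PB, and 7 of them had no edited read in the control. Without either ADAR2dd control library 3 were higher, and without either fusion library none was, in an arm of 1 library. The plot of member scores for the leading fusion of each editor shows all members side by side.

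**Figure D1:**
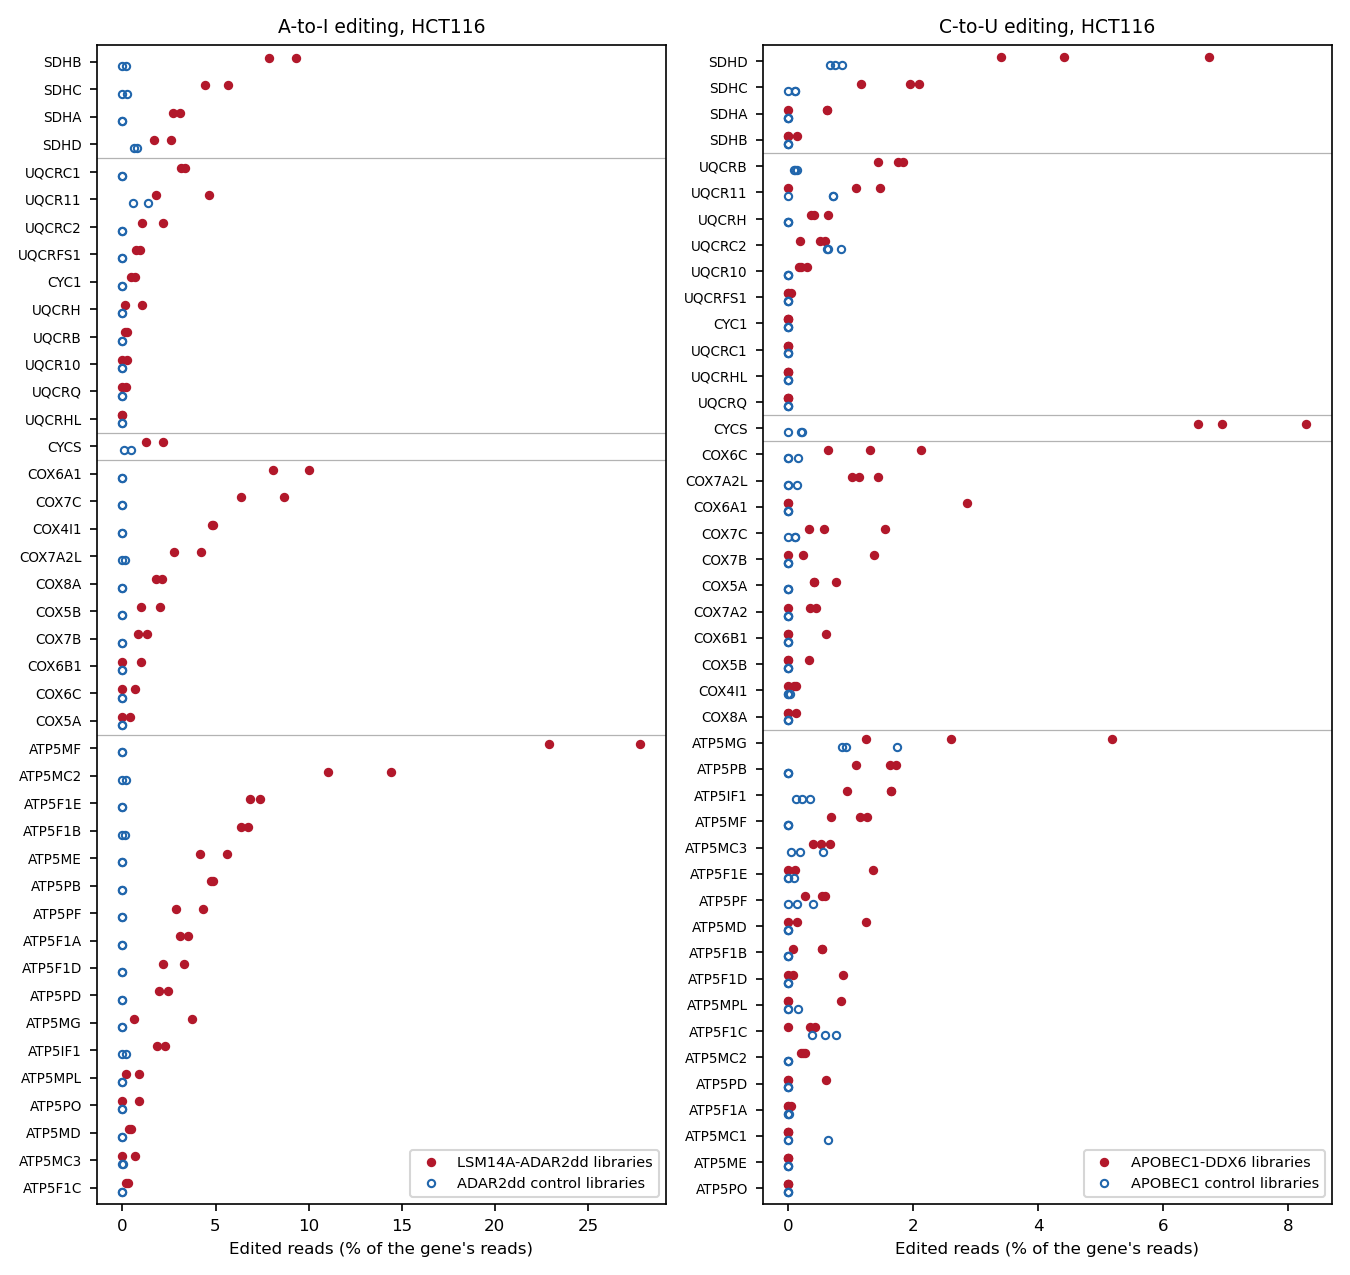
Edited reads in percent of the gene's reads for each member (rows, grouped by complex II, III, cytochrome c, IV and V from the top), with filled red points for LSM14A-ADAR2dd (left) or APOBEC1-DDX6 (right) libraries and open blue points for the libraries of the matching control. ATP5MF at 27.8% and 22.9% leads on the left and CYCS at 8.28%, 6.94% and 6.55% on the right, and most control points lie at or near 0.

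4E-T-ADAR2dd gave much the same leading members and 1 difference in the c ring. ATP5MF scored 16.7% and 17.8% in 4E-T-ADAR2dd cells against 0% in both control libraries (at least 40.1-fold higher, adjusted p = 9.57e-26), and ATP5MC2 9.25% and 7.07% against 0% and 0.173% (95.1-fold, 16.5 to 3816). ATP5MC3 reached 3.40% and 3.57% against 0% and 0.0397% (180-fold, 31.6 to 7167, adjusted p = 2.1e-34), above its scores in LSM14A-ADAR2dd cells in both libraries although the library-wide share was only 2.41%. UQCR11 followed, at 6.56% and 6.29% against 0.543% and 1.37% (7.06-fold, 2.04 to 37.6, adjusted p = 0.0014). UQCRH and UQCRHL had no edited read in any of the 4 libraries. CYCS scored 0.446% and 0.971% against 0.104% and 0.445% (2.62-fold, adjusted p = 0.00937) and was lower relative to library-wide editing (adjusted p = 0.00388). Of 27 members in the fit 26 rose beside 87.9% of genes, with 10 higher relative to library-wide editing beside 14.7% and 2 lower beside 10.9%. The control libraries alone would have brought in 2 of the 27, and 17 had no edited read there, among them 7 of the 10, so the rise was again in part a condition of entry. Both ADAR2dd fusions were read against the same control libraries.

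APOBEC1-DDX6 edited a different set of respiratory mRNAs, led by cytochrome c. It differs from LSM14A-ADAR2dd in both the tagged protein and the editor, and the part of each was not tested. With DDX6-ADAR2dd ATP5MF led, at 2.02% and 4.88%, and CYCS scored 0.261% and 0.0819%. With LSM14A-APOBEC1 CYCS led. CYCS scored 8.28%, 6.94% and 6.55% in APOBEC1-DDX6 cells against 0.195%, 0% and 0.211% in APOBEC1 control cells. That is 393 edited of 5366 reads against 12 of 8672, a 52.9-fold difference (edgeR, adjusted p = 2.29e-17). It exceeded the library-wide rise (log2 ratio 3.63 relative to library-wide editing, adjusted p = 8.78e-10). The library-wide share was 1.32% ± 0.0474 in the fusion and 0.313% ± 0.00323 in the control (SD, n = 3 each).

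SDHD was second, at 6.73%, 3.40% and 4.41% in APOBEC1-DDX6 cells against 0.753%, 0.864% and 0.661% in control cells (6.55-fold, adjusted p = 1.3e-06). ATP5MG, the g subunit of the ATP synthase, came next with spread libraries, at 2.60%, 5.18% and 1.23% against 0.851%, 0.922% and 1.74% (2.62-fold, adjusted p = 0.0848). Its groups overlap, and without the third fusion library it passed. SDHC scored 1.95%, 1.17% and 2.09% against 0%, 0.0999% and 0.101% (26.5-fold, 6.98 to 224, adjusted p = 4.24e-07). In complex II the anchors thus led under this editor, whereas SDHB, the subunit with the highest A-to-I score, carried 0%, 0.144% and 0%.

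The small complex III subunit UQCRB scored 1.43%, 1.75% and 1.83% in APOBEC1-DDX6 cells against 0.0918%, 0.144% and 0.101% in control cells (14.7-fold, adjusted p = 3.94e-09). UQCRC1 and UQCRQ had no edited read in any fusion library. The core protein UQCRC2 went the other way relative to the library, with 0.506%, 0.179% and 0.581% against 0.636%, 0.834% and 0.613% (0.61-fold, adjusted p = 0.159). Relative to library-wide editing it was lower (log2 ratio -2.75, adjusted p = 2.52e-06), and so was the gamma subunit ATP5F1C (adjusted p = 5.01e-05), at 0.425%, 0.350% and 0% against 0.383%, 0.581% and 0.758%.

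In the ATP synthase the peripheral stalk subunit ATP5PB scored 1.62%, 1.07% and 1.72% in APOBEC1-DDX6 cells against 0% in all 3 control libraries (at least 26.6-fold higher, adjusted p = 1.12e-09). ATP5F1B scored 0.534%, 0.0745% and 0.530%, with 95 edited of 24784 reads against 0 of 27187 in the control (at least 34.7-fold higher, adjusted p = 1.55e-08). ATP5MF, the first member under ADAR2dd, scored 0.687%, 1.15% and 1.26% against 0% in the control and was not in the fit. The c ring genes stayed low: ATP5MC1 had 0% in all 3 fusion libraries against 0%, 0% and 0.640%, ATP5MC2 had 0.208%, 0.229% and 0.258% against 0%, and ATP5MC3 had 0.517%, 0.669% and 0.388% against 0.181%, 0.0453% and 0.554% (2.05-fold, adjusted p = 0.0923). ATP5MC3 passed without the third control library.

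Complex medians in APOBEC1-DDX6 cells were 1.06% for complex II, 0.227% for complex III, 7.32% for cytochrome c, 0.504% for complex IV and 0.339% for complex V. The member median was 0.385% against 1.06% over all genes, and 8 of 43 members (18.6%) lay above the library-wide share, against 42.3% of genes. In the control 24 of 43 had no edited read, against 15% of genes. Of 21 members in the fit, 5 of which the control alone would have brought in, 16 rose beside 52% of genes. Relative to library-wide editing 8 were higher beside 11% of genes and 2 lower beside 20.3%. The 8 were CYCS, SDHC, UQCRB, UQCRH, COX5A, COX6C, ATP5PB and ATP5F1B. Their number was 4 without the first control library, and 5 without the third control library or the third fusion library. Among the 21 members 7 had no edited read in the control, 4 of the 8 included, so rises were in part a condition of entry.

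Cells that carried both editors allowed A-to-I and C-to-U edits to be read from the same RNA. In HCT116 the leading members of the single fusions led again. For A-to-I edits, ATP5MF scored 20.5% and 19.8% in dual-editor cells against 0% in both libraries of the unfused pair (at least 61.2-fold higher, adjusted p = 1.78e-18), ATP5MC2 9.35% and 10.7% against 0% (at least 52.6-fold higher, adjusted p = 6.94e-18), and SDHB 8.07% and 10.7% against 0.0906% and 0.486% (31.3-fold, adjusted p = 2.52e-18). CYCS scored 1.35% and 1.77% against 0.0344% and 0.0614% (31.9-fold, 10.4 to 159). ATP5MC3 scored 0.216% and 0.644% against 0% and 0.0342% (25.1-fold, 4.01 to 1040). The lowest were UQCRH, at 0.154% and 0%, and UQCRQ, at 0% and 0.127%.

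For C-to-U edits in the same cells CYCS led, at 5.55% and 5.37% in dual-editor cells against 0.241% and 0.399% in the unfused pair (16.8-fold, adjusted p = 1.13e-08). SDHD scored 4.22% and 3.95% against 0.766% and 0.528% (6.4-fold, adjusted p = 0.000177) and ATP5MG 3.25% and 4.53% against 0.687% and 0.266% (8.61-fold, 2.57 to 45.1, adjusted p = 0.00233). ATP5MC3 scored 0.735% and 0.515% against 0.104% and 0.103% (6.06-fold, adjusted p = 0.00118). ATP5MC1 scored 0.497% and 0.327% against 0% and 0.753% (1.04-fold, adjusted p = 0.968), and ATP5MC2 and COX8A had no C-to-U edit. ATP5MC2 was thus second in A-to-I edits and without a C-to-U edit in the same libraries, whereas CYCS led in C-to-U edits.

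In the fits of HCT116 dual-editor cells all 35 members rose for A-to-I edits beside 94.8% of genes, and 10 were higher relative to library-wide editing beside 11.8%. For C-to-U edits 16 of 19 rose beside 50.6% of genes, and 5 were higher relative to library-wide editing beside 11.2%. The unfused pair alone would have brought in 1 member in each fit, so that rises here too were largely conditions of entry. Without the first dual-editor library the C-to-U count was 9, and without the second it was 10, while the relative counts fell to 0 without either. Member medians were 1.74% against 3.44% over all genes for A-to-I edits and 0.374% against 0.899% for C-to-U edits. The separately sequenced set gave ATP5MF 25.3% and 23.6% against 0% and 1.64% (30.9-fold), ATP5MC2 11.1% and 11.2% against 0% (at least 54.1-fold higher) and, for C-to-U edits, CYCS 5.18% and 6.56% against 0% (at least 98.4-fold higher). In that set 34 of 34 members rose for A-to-I edits beside 92.2% of genes and 14 of 16 for C-to-U edits beside 49%. Its unfused pair alone would have brought in 0 of the 34 and 1 of the 16, so these rises were conditions of entry.

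In HEK293T ATP5MF and ATP5MC2 again had the highest A-to-I scores. ATP5MF scored 19.0% and 23.4% in dual-editor cells against 0.913% and 2.05% in the unfused pair (14.5-fold, adjusted p = 2.99e-09), and ATP5MC2 15.6% and 15.1% against 0.879% and 1.22% (14.8-fold, adjusted p = 1.41e-11). ATP5ME, the e subunit, followed at 13.4% and 12.2% against 0% (at least 39.1-fold higher, adjusted p = 1.46e-08). ATP5MC3 scored 2.28% and 2.15% against 0% and 0.0483% (93.3-fold, 16.3 to 3730). CYCS scored 2.82% and 2.80% against 0.881% and 1.07% (2.88-fold, adjusted p = 5.87e-05), lower relative to library-wide editing (adjusted p = 8.16e-05). At the low end stood UQCR10, at 0.189% and 0.448%, and UQCRQ, at 0.211% and 0%.

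For C-to-U edits in HEK293T, ATP5MG and SDHD came before CYCS. ATP5MG scored 19.4% and 16.9% in dual-editor cells against 5.34% and 5.36% in the unfused pair (3.44-fold, adjusted p = 8.95e-05). SDHD scored 14.4% and 17.2% against 2.42% and 0.401% (11.2-fold, adjusted p = 5.11e-07), and COX6A1 9.25% and 11.1% against 3.23% and 1.60% (4.09-fold, adjusted p = 5.64e-05). CYCS scored 9.12% and 10.1% against 3.37% and 4.76% (2.37-fold, adjusted p = 8.95e-06) and was lower relative to library-wide editing (adjusted p = 0.0029), the opposite side from HCT116, where the fusions exceeded it. That difference between lines was not tested. ATP5MC3 scored 1.47% and 2.89% against 0.423% and 0.820% (3.45-fold, adjusted p = 0.000524), ATP5MC2 0.394% and 0.188% against 0.165% and 0.244% (1.46-fold, adjusted p = 0.526), and ATP5MC1 0% against 0.317% and 0.602%. COX4I1 was low as well, at 0.189% and 0%.

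Of HEK293T members in the fit all 37 rose for A-to-I edits beside 94.5% of genes, with 12 higher relative to library-wide editing beside 8.72% and 1 lower beside 5.98%. For C-to-U edits 24 of 30 rose beside 67.6% of genes, with 6 higher beside 6.23% and 4 lower beside 4.85%. Without the second dual-editor library 15 rose for C-to-U edits. Without either dual-editor library the relative counts fell to 0, and without the first library of the unfused pair 7 were higher for A-to-I edits and 2 lower for C-to-U edits. Without its second library 3 were higher for C-to-U edits. The unfused pair alone would have brought in 5 of the 37 members and 18 of the 30. For A-to-I edits 24 of the 37 had no edited read there, among them 10 of the 12 relatively higher ones. For C-to-U edits 3 of the 30 had none, among them 2 of the 6 relatively higher ones. Rises were thus in part a condition of entry. Member medians were 3.56% against 4.41% over all genes for A-to-I edits and 1.23% against 2.19% for C-to-U edits.

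In the time course of LSM14A-TRIBE-ID, a rapamycin-controlled form of the A-to-I assay in HEK293T, some respiratory mRNAs were already edited at 0 min and others were not. ATP5MF scored 7.84% and 7.43% at 0 min, 7.62% and 6.66% at 15 min, 8.03% and 7.03% at 30 min, 11.8% and 11.3% at 60 min and 19.0% and 17.2% at 120 min. It did not pass at 15 or 30 min and passed the test at 60 min (1.51-fold, adjusted p = 0.0269) and at 120 min (2.37-fold, adjusted p = 5.18e-05), while it was lower relative to library-wide editing at all 4 times, as were 2, 3, 5 and 6 members in all beside 1.01%, 3.2%, 5.33% and 8.25% of genes. SDHB scored 4.58% and 3.88% at 0 min, 7.46% and 6.57% at 15 min, 8.87% and 8.56% at 30 min, 12.4% and 10.7% at 60 min and 13.8% and 13.9% at 120 min. It alone passed the threshold at 15 min (1.65-fold, adjusted p = 0.035), but with a replicate block for these paired libraries ATP5F1B passed as well, 2 members in all. The block also gave 5 members lower relative to library-wide editing at 30 min in place of 3. UQCR11 scored 2.20% and 4.71% at 0 min and 13.4% and 10.9% at 120 min (3.63-fold, adjusted p = 0.000736).

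Other members began near 0. COX4I1 scored 0.032% and 0.0316% at 0 min, 0% at 15 and 30 min, 0% and 0.0349% at 60 min and 1.09% and 1.65% at 120 min (43.4-fold, 11.6 to 365, adjusted p = 4.06e-06). ATP5MC3 scored 0.0322% and 0.0323% at 0 min and 0.851% and 0.767% at 120 min (25.1-fold, 6.51 to 215, adjusted p = 0.000132). ATP5MC2 scored 3.47% and 3.55% at 0 min and 14.1% and 9.67% at 120 min (3.38-fold, adjusted p = 1.58e-06), so that both c ring genes rose, with different scores at 0 min. COX7C had no edited read at 0 and 15 min, then 0.753% and 0.834% at 30 min, 1.80% and 2.10% at 60 min and 3.83% and 2.48% at 120 min. CYCS scored 0.515% and 0.849% at 0 min and 0.785% and 2.46% at 120 min, groups that overlap (2.4-fold, adjusted p = 0.0277). ATP5MC1 and UQCRHL, the lowest at 120 min, had no edited read then.

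Members past the threshold numbered 1, 6, 20 and 29 of 33 at 15, 30, 60 and 120 min of rapamycin, beside 16.6%, 46.8%, 69.4% and 78.2% of genes. At 30 min these were SDHB, SDHC, COX7A2L, COX7C, ATP5F1B and ATP5F1A. At 120 min 6 members were higher relative to library-wide editing beside 16.4% of genes (COX4I1, COX5B, COX7C, CYC1, UQCRC2 and ATP5F1A) and 6 were lower beside 8.25% (ATP5MF, ATP5MC2, ATP5F1D, SDHB, COX6A1 and CYCS). The 0 min libraries alone would have brought in 14 of the 33 members. At 0 min 8 of the 33 had no edited read, among them 4 of the 6 higher ones, so rises were in part a condition of entry. The median score of 41 members was 0.032% and 0.0323% at 0 min, 0% at 15 min, 0.0908% and 0.202% at 30 min, 0.834% and 0.835% at 60 min and 2.06% and 1.65% at 120 min. Over all 10642 genes it was 0.453% and 0.413% at 0 min and 3.86% and 3.18% at 120 min. Without the second library of 0 min or the first of 15 min, no member passed at 15 min. The plot of scores over time after rapamycin sets the members beside all genes.

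**Figure D2:**
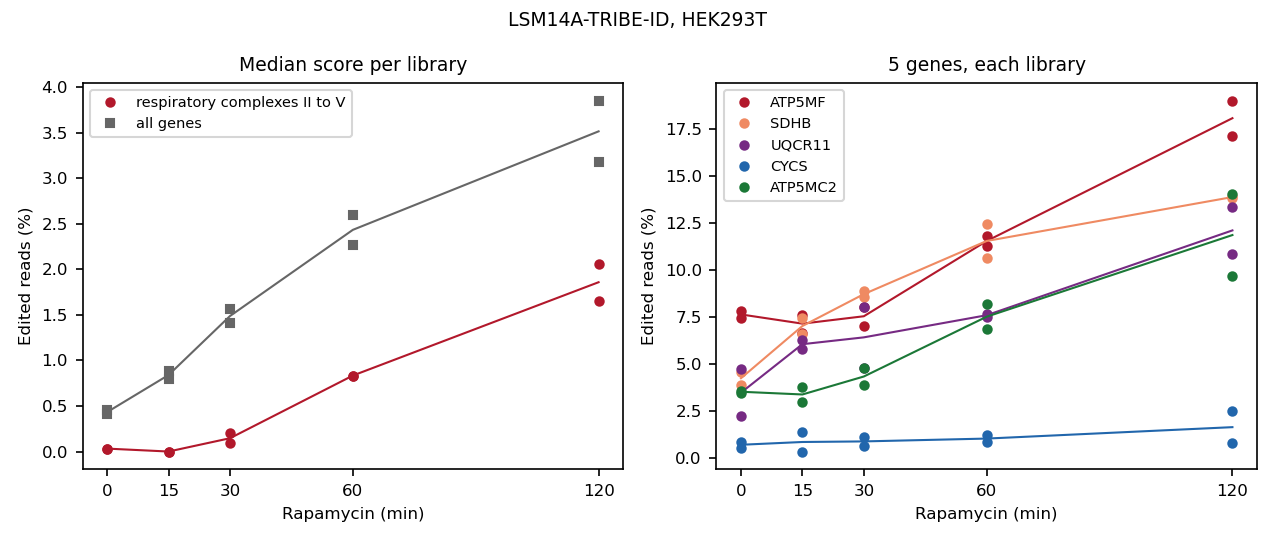
Left, the median edited share in percent over members (red) and over all genes (grey) for each LSM14A-TRIBE-ID library at 0, 15, 30, 60 and 120 min of rapamycin; right, the share in 5 members, with points for libraries and lines through the means. The member median stays below that of all genes at every time, and ATP5MF ends highest, at 19.0% and 17.2%.

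With DDX6-STAMP-ID no member passed the test. ATP5MF scored 5.10% and 4.97% at 0 min and 5.57% and 4.81% at 120 min, and CYCS 5.09% and 4.69% at 0 min, 5.06% and 5.63% at 15 min, 6.06% and 5.34% at 30 min and 4.66% and 4.71% at 120 min. COX6A1 scored 5.47% and 4.39% at 0 min and 4.57% and 5.31% at 120 min, and CYC1 was at or near 0 throughout. None of 32 members passed edgeR at any time, beside 0.012% of genes called higher. At an unadjusted p under 0.05 edgeR gave 3 higher and 1 lower at 15 min, 3 and 2 at 30 min and 2 and 3 at 120 min, and DESeq2 called 0 after adjustment. The library-wide share itself was 0.552% and 0.568% at 0 min and 0.598% and 0.575% at 120 min, while member medians were 0.357% and 0.286% at 0 min and 0.348% and 0.477% at 120 min.

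Across the 10 ADAR2dd fusions the same few members came back, each time against the same control libraries. ATP5MF entered 8 fits and rose in all 8, ATP5F1B rose in 7 of 10, ATP5F1E in 6 of 6, SDHB in 6 of 9, ATP5MC2 in 6 of 7, COX7C in 5 of 6 and ATP5PB in 5 of 5. In PATL1-ADAR2dd cells ATP5MF scored 7.57% and 7.27% against 0% in the control (at least 17.3-fold higher), and 11 of 12 members rose beside 60.3% of genes. With DDX6-ADAR2dd 11 of 13 rose beside 49.2%. CYCS rose with LSM14A-ADAR2dd and 4E-T-ADAR2dd only, among 10 fits. It fell with ADAR2dd-DDX6, to 0% and 0.0383% against 0.104% and 0.445% (adjusted p = 0.0259), 1 of 11 members beside 0.0808% of genes. DESeq2 called 0 members lower with ADAR2dd-DDX6. Summed over the 10 fits, members rose in 92 of 119 cases beside 49.2% of genes and fell in 1 beside 0.0944%, and relative to library-wide editing they were higher in 31 beside 8.44% and lower in 7 beside 5.7%. The control libraries alone would have brought in 20 of the 119 cases, and 61 had no edited read there, among them 25 of the 31, so most cases entered through the group in which they were high and the counts are given as a description. Leaving out 1 fusion library each time brought the 31 to 3, leaving out the second control library brought it to 17, and leaving out the second fusion library each time brought the 92 to 55.

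Across the 10 APOBEC1 fusions CYCS rose in 8 of 10 fits. It scored 4.31% and 4.61% with APOBEC1-PATL1 (32.3-fold), 2.27% and 2.87% with LSM14A-APOBEC1 (18.5-fold), 0.759% and 1.30% with EDC3-APOBEC1 (7.46-fold, adjusted p = 0.00287) and 0.410% and 1.32% with EDC4-APOBEC1 (6.08-fold, adjusted p = 0.0225), against 0.195%, 0% and 0.211% in the APOBEC1 control. With DCP2-APOBEC1 it scored 0% and 0.0218% (adjusted p = 0.106). Members that rose numbered 6 of 13 with APOBEC1-PATL1 beside 23.4% of genes and 8 of 17 with LSM14A-APOBEC1 beside 27.9%, while with EDC3-APOBEC1 CYCS alone of 7 rose beside 0.859% and with EDC4-APOBEC1 CYCS alone of 8 beside 1.09%. DESeq2 called 0 members higher with EDC3-APOBEC1, EDC4-APOBEC1 and DDX6-APOBEC1, so the rise of CYCS there rests on edgeR. In those DCP2-APOBEC1 cells 3 of 6 members fell beside 7.03% of genes, among them SDHD, at 0% in both libraries against 0.753%, 0.864% and 0.661% in the control (adjusted p = 0.0146), and ATP5F1C, at 0% (adjusted p = 0.000872). The control libraries alone would have brought in 5 of these 6, so a fall was in part a condition of entry. Library-wide editing with DCP2-APOBEC1 was 0.593-fold that of the control. Relative to it 1 member was lower, and DESeq2 called 1 member lower in edited share. UQCRC2 fell with 3 APOBEC1 fusions and was lower relative to library-wide editing with 6. Summed over the 10 fits members rose in 36 of 107 cases beside 15.3% of genes and fell in 8 beside 2.35%, and relative to library-wide editing they were higher in 18 beside 4.51% and lower in 11 beside 6.66%. Here the control libraries alone would have brought in 50 of the 107 cases. No edited read stood in the control for 15 cases, among them 7 of the 18, so rises were in part a condition of entry. The relative counts were 9 higher without the first or the third control library and 5 lower without the first fusion library. In the fusions with 1 library each, 7 of 216 member scores lay above the APOBEC1 control beyond counting error, beside 2.9% of all gene scores.

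Genes that work with complexes II to V were read from the same fits. With LSM14A-ADAR2dd 18 of 19 complex I subunit mRNAs rose, with NDUFB2 at 30.9%, as did 20 of 21 assembly factor mRNAs, 10 of 11 of the import machinery and 5 of 5 regulators such as ESRRA, shares near the 93.1% of all genes. With APOBEC1-DDX6 8 of 12 complex I subunit mRNAs rose, led by NDUFB5 at 10.3%, beside 11 of 19 assembly factors, 9 of 13 of the import machinery and 3 of 6 regulators, against 52% of all genes. The control libraries alone would have brought in 5, 2, 1 and 1 genes of these lists to the fit of LSM14A-ADAR2dd and 1, 4, 1 and 3 to that of APOBEC1-DDX6. The mitochondrially encoded partners had no row in the table of LSM14A-ADAR2dd.

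Most respiratory genes had fewer reads in induced APOBEC1-DDX6 cells than in induced APOBEC1 control cells. Of 43 members tested on reads (edgeR with TMM scaling) 36 were lower in APOBEC1-DDX6 cells than in APOBEC1 control cells, beside 41.5% of all genes, and 2 were higher beside 41.9%. ATP5ME had 15.1, 16.0 and 14.8 CPM (reads scaled to library size with TMM factors) in APOBEC1-DDX6 cells against 51.2, 42.9 and 51.4 CPM in control cells (0.318-fold, adjusted p = 4.89e-63). UQCRH had 74.1, 74.8 and 75.7 CPM against 179, 167 and 176 CPM (0.433-fold). CYCS had 153, 153 and 156 CPM against 328, 296 and 316 CPM (0.495-fold, adjusted p = 2.23e-101), so the member with the highest C-to-U score was also among those with the lowest read ratio. ATP5MC2 had 36.8, 38.6 and 37.0 CPM against 76.7, 77.9 and 73.1 CPM (0.497-fold). In these 4 genes the groups lay far apart. UQCRHL, at 1.99, 1.33 and 1.24 CPM against 5.98, 4.40 and 6.57 CPM, had too few reads for the test.

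The exceptions were UQCRFS1, with 256, 260 and 269 CPM in APOBEC1-DDX6 cells against 166, 162 and 171 CPM in control cells (1.58-fold, adjusted p = 1.17e-63), and COX8A, with 66.9, 67.0 and 66.4 CPM against 47.8, 42.2 and 50.6 CPM (1.44-fold, adjusted p = 7.36e-20). By complex, 3 of 4 members of complex II were lower, 7 of 9 of complex III, cytochrome c, 9 of 11 of complex IV and 16 of 18 of complex V. The head subunits beta and alpha changed less than the small ones named above, ATP5F1B to 0.729-fold and ATP5F1A to 0.785-fold. SDHA stood at 1.02-fold (adjusted p = 0.737), UQCR11 at 0.96-fold (0.569) and COX6A1 at 0.961-fold (0.372), none past the threshold. The member median was -0.54 on the log2 scale, against 0.00 over all genes. The plot of reads in induced cells gives every member.

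**Figure D3:**
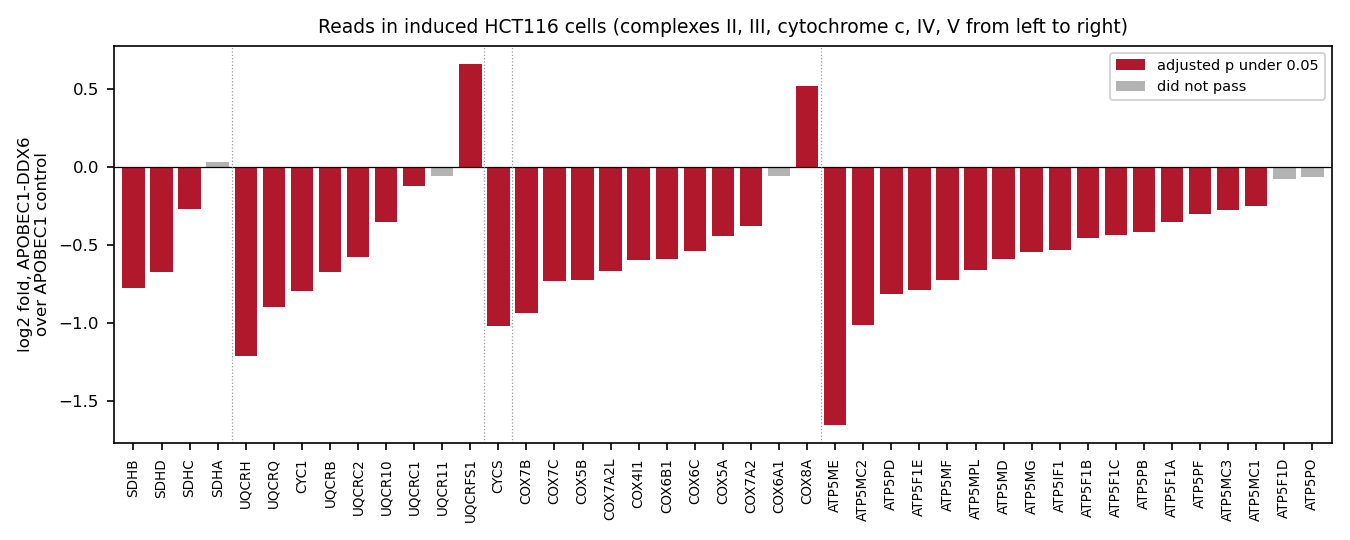
Bars give the log2 fold of reads, induced APOBEC1-DDX6 over APOBEC1 control (n = 3 each), for 43 members by complex, in red where the adjusted p was under 0.05 and in grey otherwise. Red bars point down for 36 members and up for UQCRFS1 and COX8A.

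The summed reads of members made up 0.490% to 0.493% of each APOBEC1-DDX6 library against 0.619% to 0.634% of each control library. The share was 0.504% to 0.652% in the other APOBEC1 fusions. Of complex I subunits 26 of 36 were lower and 3 higher, and 25 of 39 assembly factors and 20 of 23 import genes were lower, while both mitochondrially encoded partners in the fit were higher. In HCT116 dual-editor cells the members' share was at most 0.501% against 0.611% to 0.618% in the unfused pair, but in the separately sequenced set it was 0.542% to 0.548% against 0.547% to 0.551%. In HEK293T it was 0.644% to 0.651% in dual-editor cells against 0.683% to 0.686%. Markers of the line itself moved between the induced groups: 4 of 6 HCT116 markers were lower, with a summed 2102 to 2150 CPM in APOBEC1-DDX6 cells against 3824 to 3901 CPM in control cells. Marker sums are CPM scaled to library size alone, without TMM factors. The HEK293T markers CKB and PAX2 were both higher, with a summed 530 to 550 CPM against 367 to 385 CPM, and COL1A1 and VIM summed to 140 to 143 CPM against 45.8 to 53.9 CPM. In HEK293T dual-editor cells HCT116 markers summed to 283 to 288 CPM against 135 to 139 CPM in the unfused pair, and HEK293T markers to 1208 to 1218 CPM against 1388 to 1424 CPM. In HCT116 dual-editor cells HCT116 markers summed to 2602 to 2635 CPM against 2751 to 2805 CPM, and in the separately sequenced set to 2764 to 2872 CPM against 3002 to 3007 CPM. The part of these differences in the reads of members was not tested.

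Uninduced lines were measured as TPM, reads scaled for transcript length and library size, another scale than the induced reads. In uninduced APOBEC1-DDX6 cells 20 of 45 members were higher than in uninduced APOBEC1 control cells beside 23.6% of genes, and 3 were lower beside 20.2% (limma on log2(TPM + 1)). CYCS had 135, 142 and 141 TPM in uninduced APOBEC1-DDX6 cells against 116, 111 and 113 TPM in APOBEC1 control cells (log2 difference 0.30, adjusted p = 4.01e-05), higher than its control where the induced reads were lower, a contrast that was not tested. ATP5ME had 76.2, 76.8 and 95.8 TPM against 74.2, 76.6 and 82.7 TPM (0.08, adjusted p = 0.465). The 3 lower members were ATP5MC2, at 39.9, 39.4 and 38.9 TPM against 46.3, 45.5 and 45.5 TPM (-0.21, adjusted p = 0.000871), SDHD (-0.15, adjusted p = 0.0498) and UQCRC2 (-0.09, adjusted p = 0.0381). Their number was 1 without the second or the third control library or the second APOBEC1-DDX6 library.

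Both lines with ADAR2dd had more RNA of nearly every member than the APOBEC1 control. In the unfused pair 43 of 45 were higher beside 39.6% of genes and 1 lower beside 17.1%. In ADAR2dd control cells 43 of 45 were higher beside 39.2% of genes. ATP5F1E, the epsilon subunit, had 81.6 and 84.6 TPM in the unfused pair and 107 and 101 TPM in ADAR2dd control cells, against 47.0, 43.4 and 43.5 TPM in APOBEC1 control cells (log2 differences 0.88 and 1.21). CYC1 had 410 and 416 TPM in the unfused pair and 507 and 527 TPM in ADAR2dd control cells, against 250, 253 and 259 TPM (0.70 and 1.02). ATP5ME had 184 and 183 TPM and 186 and 169 TPM, against 74.2, 76.6 and 82.7 TPM (1.23 in the unfused pair). All 3 lines were read against the same control libraries.

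A few members stood outside this shift. UQCR11 had 20.4 and 19.2 TPM in the unfused pair against 26.2, 21.6 and 22.7 TPM in APOBEC1 control cells (log2 difference -0.23, adjusted p = 0.031). ATP5MF had 45.7 and 49.5 TPM there against 48.0, 50.0 and 45.1 TPM (-0.00, adjusted p = 0.953), although in ADAR2dd control cells it had 71.3 and 70.9 TPM (0.57). Median log2 differences of members were 0.08 in APOBEC1-DDX6 cells, 0.54 in the unfused pair and 0.64 in ADAR2dd control cells, against 0.01, 0.13 and 0.10 over all genes. Without the first control library or either library of the unfused pair, the count of lower members there was 0.

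Transcripts of the mitochondrial genome took 37.2% to 37.7% of TPM in uninduced APOBEC1-DDX6 cells, 28.1% to 28.2% in the unfused pair and 24.9% in ADAR2dd control cells, against 38.1% to 38.7% in APOBEC1 control cells. Of the TPM left without them, members took 0.980% to 0.990%, at most 1.19% and 1.24% to 1.25%, against 0.932% to 0.944%. Rescaled in this way, 15 members were higher and 4 lower in APOBEC1-DDX6 cells (beside 20% and 21% of genes), 37 and 2 in the unfused pair (20.8% and 29.9%), and 35 were higher in ADAR2dd control cells (20.1%). Member medians of the log2 difference were 0.05, 0.33 and 0.36 beside -0.01, -0.07 and -0.16 over all genes. On the TPM scale before rescaling, the mitochondrially encoded partners were lower in 5, 4 and 5 of 6 cases. On that same scale complex I subunits were higher in 13, 33 and 35 of 38 cases, and the members in 20, 43 and 43 of 45. HCT116 markers were present in every line, at a summed 4221 to 5195 TPM, and markers of other cell types summed to at most 23.3 TPM. The HEK293T markers were present as well, at a summed 502 to 682 TPM, with 2 of 5 at 1 TPM or more in each line. The plot of uninduced levels gives the members by line.

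**Figure D4:**
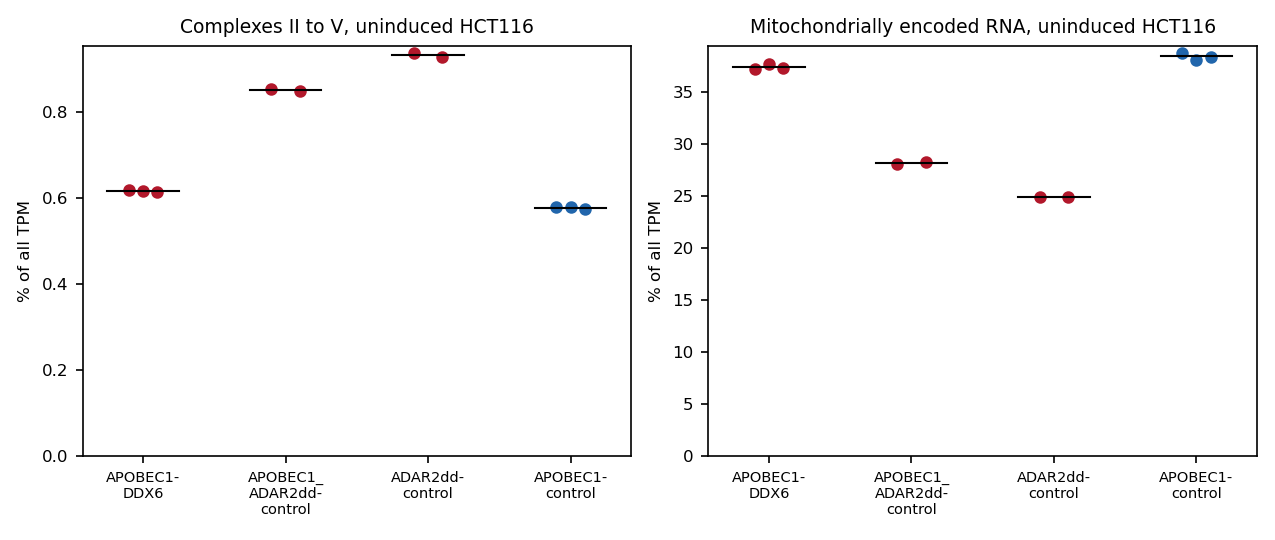
Points are uninduced HCT116 libraries and lines their means: left, the summed TPM of members in percent of all TPM; right, that of mitochondrially encoded RNA. The members' share is 0.928% to 0.936% in ADAR2dd control cells and 0.575% to 0.579% in APOBEC1 control cells, where mitochondrially encoded RNA is 24.9% and 38.1% to 38.7%.

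Translation efficiency, the authors' log2 ratio of polysomal to total RNA, was set between DDX6-knockout and wild-type cells with 1 deposited value per genotype and line, so differences have no replicate check and no test. In HCT116 most respiratory mRNAs had a lower value in the knockout, while most other genes had a higher one. Of 45 members 32 lay below 0, beside 20.4% of genes of the editing tables. The member median difference was -0.23, against 0.27 over those genes. In HEK293T 39 of 45 lay above 0, beside 60.4% of genes, with a median of 0.13 against 0.07. A lower value in HCT116 together with a higher one in HEK293T was found for 28 of 45 members and for 1230 of 12422 genes.

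In HCT116 the translation efficiency (log2) of ATP5MD, a small subunit of the ATP synthase, was 0.55 in DDX6-knockout cells against 1.49 in wild-type cells. UQCRH had 1.05 against 1.77, UQCRQ 0.51 against 1.19 and ATP5ME 0.45 against 1.10. These small subunits had high wild-type values. Among the 13 members higher in the knockout the difference was largest for COX6B2, a complex IV subunit, at 0.88 against 0.18. Others of the 13 were SDHD, 1.65 against 1.04, UQCRC2, 0.18 against -0.40, ATP5F1A, 0.35 against -0.15, and CYCS, 1.26 against 0.85. By complex, over the 46 genes with a value in HCT116, 2 of 4 members of complex II, 7 of 10 of complex III, 11 of 13 of complex IV and 12 of 18 of complex V lay below 0.

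In HEK293T the knockout value of UQCRB was 1.57 against 1.09 in wild-type cells, that of ATP5PB 0.47 against 0.01, that of ATP5F1C 0.69 against 0.24 and that of CYCS 1.76 against 1.38. CYCS was thus higher in the knockout of both lines. The largest fall among members was that of ATP5F1D, 0.37 against 0.58. Complex I subunits lay below 0 in 30 of 38 cases in HCT116 and above 0 in 31 of 38 in HEK293T, and mitochondrially encoded partners lay above 0 in 5 of 6 and 6 of 6. With pseudogenes, 33 of 53 values lay below 0 in HCT116 beside 29.1% of all genes and 42 of 51 above 0 in HEK293T beside 54.1%. DDX6 itself had a translation efficiency of -0.18 in knockout against -1.71 in wild-type HCT116 cells and 0.85 against 0.18 in HEK293T cells, a ratio that does not check the deletion. The plot of translation efficiency sets both lines against each other.

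**Figure D5:**
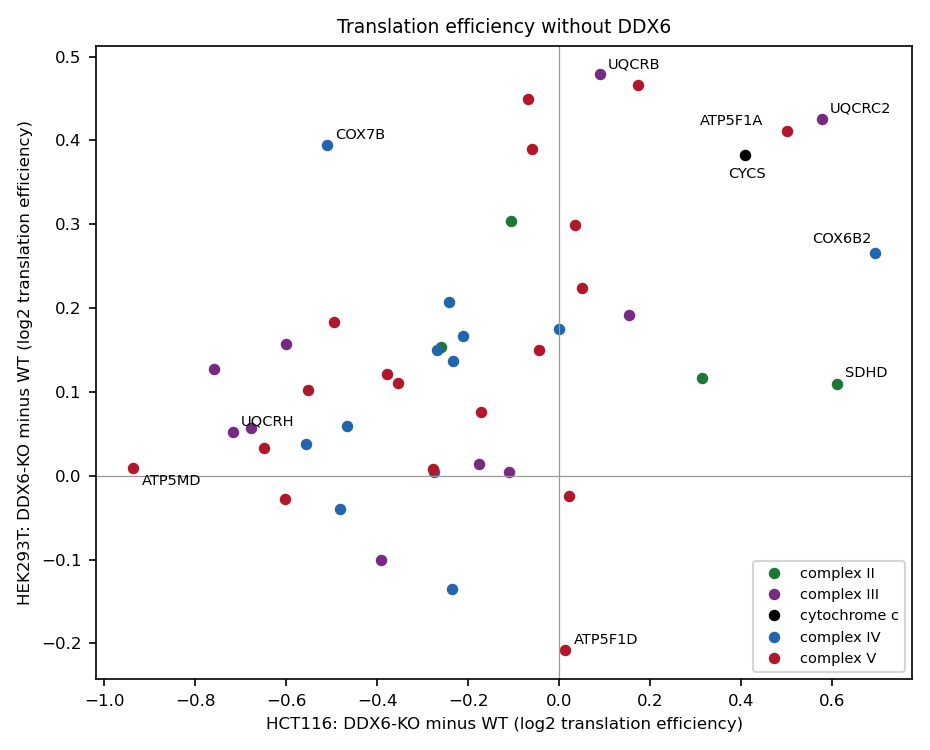
Each point is a member, at the difference of log2 translation efficiency, DDX6-knockout minus wild type, in HCT116 (x axis) and in HEK293T (y axis), coloured by complex, with no replicates. The upper left area, lower in HCT116 and higher in HEK293T, holds 28 of 45 members, ATP5MD lies farthest left, and CYCS and SDHD lie at the upper right.

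Median tail lengths were deposited for reads with both kinds of edit and for the other reads of the same gene, in a unit that is not given in the sources used here, from 1 library per line and so without a test. All 4 members listed in HCT116 and all 12 listed in HEK293T had shorter tails on doubly edited reads, beside 81.9% and 85.4% of genes. Genes with more reads more often had shorter tails on doubly edited reads: with at least 20 reads per class the shares of all genes were 89.5% and 95.4%, and with at least 50 they were 97.7% and 100%, so the members' count does not set them apart. In HCT116 the median tail of ATP5PB was 62.7 on 44 doubly edited reads against 122 on 655 other reads, that of CYCS 84.3 on 43 against 144 on 433, that of SDHC 77.6 on 43 against 136 on 212 and that of ATP5F1B 76.0 on 95 against 130 on 1791. The median difference of these 4 was -58.8, against -36.3 over all listed genes. In HEK293T the median difference of 12 members was -26.4, against -31.5 over all listed genes. There ATP5F1A had 54.9 against 105, ATP5PB 57.3 against 112, SDHC 79.6 against 127, COX7C 59.1 against 88.4 and UQCRH 48.3 against 74.8, while COX6A1, the smallest difference, had 73.2 against 84.8. Doubly edited reads were a median 7.66% of reads of members in HCT116 against 23.5% over all listed genes, and 6.48% against 23.1% in HEK293T. With at least 50 reads per class this was 5.04% in 1 member against 27.0% in HCT116, and 7.08% in 3 members against 10.5% in HEK293T. SDHC had the highest value among listed members in both lines, at 16.9% (exact Clopper-Pearson 95% interval 12.5 to 22.0) and 29.5% (20.3 to 40.2). In HEK293T it had 26 doubly edited reads of 88, and its interval there holds the share of ATP5F1B. ATP5F1B had 5.04% (4.09 to 6.12) in HCT116 and 25.3% (21.2 to 29.8) in HEK293T.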

How the data were processed

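Per the labels' protocols, total RNA came from a TRIzol extraction, short-read libraries from an mRNA kit and nanopore reads from a cDNA kit. Tools in the submitters' processing notes, without roles, are featureCounts 2.0.1, STAR 2.7.9a, FastQC 0.11.9 and cutadapt 1.18, with build hg38. The authors deposited, per gene and library, counts of reads and of edited reads, and the fraction edited, which equals edited reads over reads within 5e-08. For uninduced cells the authors deposited TPM. They deposited translation efficiency as log2 values with replicates combined in a way that is not stated, and median tail lengths per gene, a score in no stated unit, with read counts. Neither the edit caller nor the tail caller is given in the sources used here.

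Edited reads were tested with edgeR 4.0.16 (R 4.3.3), with log reads in the offset. A gene needed 20 reads or more per library and 10 edited reads in all. Tests were two-sided, with Benjamini-Hochberg adjustment over all genes and a threshold of 0.05. For editing relative to the library, the library-wide edited share was added to the offset. Reads were tested with edgeR and TMM factors, TPM with limma 3.58.1 (trend) on log2(TPM + 1) where the mean TPM reached 1. DESeq2 1.42.0, other filters, scalings and pseudocounts, a replicate block and leaving out each library were alternatives. Folds against a count of 0 used 3 counts over the group. Other steps used Python 3.11.15 with matplotlib 3.10.9, scipy 1.17.1, numpy 2.4.6 and pandas 2.3.3. Per comparison the rule named the 3 highest and 2 lowest members past that read minimum and the ATP5MC genes, and any other member could be named, so such members were chosen after their values were seen. Members and lists were chosen with earlier results of these data known.

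On simulated data with 200 changed genes edgeR recovered 130 of 200 in the LSM14A-ADAR2dd design (8415 genes) and 127 of 200 in the APOBEC1-DDX6 design (8359 genes), 193 of 200 for reads (11638 genes), and limma 200 of 200 (8000 genes). False calls numbered 6, 1, 6 and 12 in this order. For edited reads the changed genes were well read, with edits expected in both groups. Members without an edited read in the control were thus not covered by the simulation. Reads of 15 among 41 replicate pairs agreed within counting noise, so these may be technical, but edited reads of pairs differed by a chi-square of 1.13 to 2.56 per degree of freedom, so libraries were kept apart. LSM14A-TRIBE-ID libraries of the same number had reads that deviated together over 20 pairs (r 0.722 to 0.791; edited shares 0.0214 to 0.177), so the numbers of the labels pair them. XBP1 groups were not analysed here.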

Additional observations from a re-analysis of the deposited data

Results flagged for a closer look

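Median translation efficiency of members differed between knockouts of the lines: the log2 difference, DDX6-knockout minus wild type, was -0.23 in HCT116 and 0.13 in HEK293T, and this difference between lines was not tested. In APOBEC1 fusions with 1 library each, 7 of 216 member values, in 6 genes, lay above the APOBEC1 control beyond counting error (exact Clopper-Pearson 95% intervals), with no replicate, a share near the 2.9% of all gene values. ATP5F1C scored 6.36% with APOBEC1-LSM14A (55 of 865 reads, 4.83 to 8.20) against 0.575% in the control, although it was lower relative to library-wide editing with APOBEC1-DDX6. COX6B1 scored 0.723% with APOBEC1-LSM14A (4 of 553 reads, 0.197 to 1.84) against 0 of 2744 control reads. COX7A2L scored 1.90% with APOBEC-DCP2 (0.768 to 3.88) against 0.049%. CYCS scored 1.12% with APOBEC-DCP2 (0.752 to 1.61) and 1.20% with APOBEC-EDC3 (0.673 to 1.97) against 0.138%. SDHC scored 0.782% with APOBEC-EDC3 (0.255 to 1.82) against 0.0657%, and UQCRFS1 0.437% with APOBEC1-EDC4 (0.142 to 1.02) against 0 of 4603 control reads.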

How the results depend on the processing

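With DESeq2 the members lower relative to library-wide editing numbered 1 with LSM14A-ADAR2dd, also 1 with at least 100 reads per library. DESeq2 gave 4 higher relative to library-wide editing with APOBEC1-DDX6. For C-to-U edits of the HCT116 dual editor it gave 7 higher and 1 higher relative to library-wide editing, also 1 without a filter, and in HEK293T 2 higher and 0 lower relative to it. In the time course it gave 0 higher at 15 min, 11 at 60 min and 3 higher relative to library-wide editing at 120 min. Summed over ADAR2dd fusions the relative counts were 18 higher and 2 lower with DESeq2 and 20 higher without a filter, and summed over APOBEC1 fusions 17 rose and 8 were relatively higher with DESeq2. Without a filter 1 member was lower in uninduced APOBEC1-DDX6 cells and 0 in the unfused pair, 2 there without mitochondrial transcripts, and 6 relatively lower at 30 min of LSM14A-TRIBE-ID. The cause was not tested. Of all alternatives that keep every library, 211 counts lay within 1.5 times the main one and 22 outside it, those just given and the block counts at 15 and 30 min below. Same-numbered libraries other than LSM14A-TRIBE-ID are taken to share only a number: their edited shares had an r of -0.059 to 0.0939, and their reads of -0.132 to 0.365, highest for DCP2-APOBEC1 (0.27 to 0.365), LSM14A-ADAR2dd (0.24) and PATL1-APOBEC1 (0.161 to 0.199), with 2 numbers each. With the replicate block 28 rose with LSM14A-ADAR2dd (8 relatively higher, 2 lower) and 16 with APOBEC1-DDX6 (6 and 2). In the paired time course the block gave 2 higher at 15 min, 5 relatively lower at 30 min and 30 higher at 120 min, and it changed no other call count by over 1.5 times. Among named members 275 of 283 values kept direction and side. ATP5MC1 reversed to a log2 ratio of -0.84 for HCT116 C-to-U edits without the first library of the unfused pair, and ATP5MC2 to -0.10 in HEK293T without the first dual-editor library, against 0.94 without the second. With DESeq2 ATP5MC3 lost its call with LSM14A-ADAR2dd and, with ATP5MG, for HCT116 C-to-U edits. Leaving out 1 library gave these ranges (rose, relatively higher, relatively lower): LSM14A-ADAR2dd 20 to 28, 0 to 3 and 0 to 1; APOBEC1-DDX6 12 to 14, 4 to 6 and 2 to 3; HCT116 dual A-to-I 29 to 35, 0 to 7 and 0 to 1, C-to-U 9 to 14, 0 to 4 and 0 to 1; HEK293T dual A-to-I 32 to 37, 0 to 10 and 0 to 1, C-to-U 15 to 25, 0 to 6 and 0 to 4; LSM14A-TRIBE-ID at 15 min 0 to 1, 0 to 1 and 0 to 2, at 30 min 5 to 8, 1 to 2 and 2 to 4, at 60 min 14 to 21, 2 to 4 and 3 to 6, at 120 min 24 to 29, 4 to 7 and 4 to 6; ADAR2dd fusions 55 to 85, 3 to 22 and 0 to 6; APOBEC1 fusions 24 to 34, 9 to 15 and 5 to 11. Higher and lower counts were 14 to 18 and 1 to 2 in uninduced APOBEC1-DDX6 cells, 41 to 42 and 0 to 1 in the unfused pair, and 2 and 36 to 37 for induced reads. The minimum of 10 edited reads set what could be tested: it left out 12 of 42 listed members with LSM14A-ADAR2dd and 22 of 44 with APOBEC1-DDX6, and too few reads left out 0 and 1.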
